A study of Rattus norvegicus with 8 samples.

Results

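The genes described here encode protein kinase A (PKA), the transcription factors of the cAMP response and the coactivators of those factors. They were 10 genes: the PKA catalytic subunits Prkaca and Prkacb, the PKA regulatory subunits Prkar1b and Prkar2b, the factors Creb1, Crem and Atf2, and the CREB-regulated coactivators Crtc1, Crtc2 and Crtc3. Members were found by gene name on the array, which matched 9 of the 10 genes through 16 probes. Crtc1 is listed on the array under its older name Mect1 and was matched through its RefSeq accession, which brought the probes to 17. Of these, 15 passed the filter on dim probes, with at least 1 for every gene. Over all genes 21370 probes passed, and the brightest of each gene gave the 18799 features tested.

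RNA came from the hippocampus of Sprague Dawley rats, all males of 3 months. One group had received the combination labelled Y+I (yohimbine with imipramine, per the series title) for 7 days and the other vehicle for 7 days, with a label of 2 h for both. Each group held 4 animals, each with its own 1-colour Agilent array of Cy3-labelled RNA primed with oligo-dT. Neither drug alone was analysed here, and the labels give no doses. Yohimbine blocks alpha2-adrenoceptors, and imipramine inhibits the reuptake of noradrenaline and serotonin.

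In the inactive PKA holoenzyme, regulatory subunits hold the catalytic subunits. When cAMP binds the regulatory subunits, the catalytic subunits are released and phosphorylate targets that include CREB, the product of Creb1. Phosphorylated CREB recruits the histone acetyltransferases CBP and p300 to the cAMP response element (CRE), while CRTC proteins bind CREB independently of that phosphorylation once calcineurin has released them from the SIK kinases' retention in the cytoplasm. Alpha2-adrenoceptors couple to the G protein that inhibits adenylyl cyclase. In the hippocampus this pathway is known for its part in long-lasting synaptic change and memory.

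The arrays differed in quality between the groups. Of 58717 noncontrol spots, between 64.4% and 74.8% were well above background in Y+I animals, against 76.4% to 79.7% in vehicle animals, and Y+I animals 2 and 3 had the fewest. The 75th percentile of the processed signal, before centring, was lowest on the array of Y+I animal 4 (1045) and ran from 1408 to 2106 on the others. The median SD of a feature between animals was 0.239 log2 units in Y+I and 0.134 in vehicle. All 8 arrays shared 1 slide and 1 scan, with Y+I on one row of the slide and vehicle on the other, so that row and treatment cannot be told apart. Precision is limited by the 4 arrays in each group. Hippocampal neuron markers were present: all 9 listed markers were tested and 8 of them were well above background on all 8 arrays.

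Values are on a log2 scale on which 0 is the 75th percentile of that array's processed signals. Levels are compared between animals at the same probe and not between probes. The probes on which the largest differences rest are printed here because each value is the signal of these 60 bases alone. They run 5′ to 3′, with positions on rat build rn4 as the files give them.
Prkar2b (chr6:50235093-50235152, minus strand): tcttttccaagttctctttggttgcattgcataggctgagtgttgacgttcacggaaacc
Prkacb (chr2:244949415-244954750, minus strand): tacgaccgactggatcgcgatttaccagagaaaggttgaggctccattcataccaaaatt
Creb1 (chr9:63210434-63210493, plus strand): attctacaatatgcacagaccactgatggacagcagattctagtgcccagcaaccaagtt
Prkar1b (chr12:16131001-16131060, plus strand): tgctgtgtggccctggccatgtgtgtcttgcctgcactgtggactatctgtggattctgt
The Prkacb probe spans 5336 bases of the genome with 60 bases of sequence, so it crosses at least 1 intron. The other 3 lie in unbroken stretches, and whether they cover coding sequence or a UTR was not determined here.

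None of the 10 genes passed the test between Y+I and vehicle. In limma across all 18799 features, 0 of 10 had a Benjamini-Hochberg adjusted p under 0.05, where 2.34% of all features did. At an unadjusted p under 0.05 there were 2 of 10, Prkar2b and Prkacb, both lower in Y+I, where 9.17% of all features were lower at that level, 6.46% were higher and 15.6% passed it in either direction. The median log2 fold change of the 10 genes was -0.02, as was the median of all features (-0.02), and 7 of the 10 lay below 0, where 54.1% of all features did. Of the 7, Crem, Crtc2 and Prkaca each stood at -0.02 and turned sign in some alternatives. Creb1, among the 7, and Crtc3, above 0, passed the filter through vehicle alone, a route that favours values below 0. The groups did not overlap for 2 of 10 genes, Prkar2b and Prkar1b, both with Y+I lower, where 6.65% of all features had that pattern and 11.7% did not overlap in either direction.

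**Figure D1:**
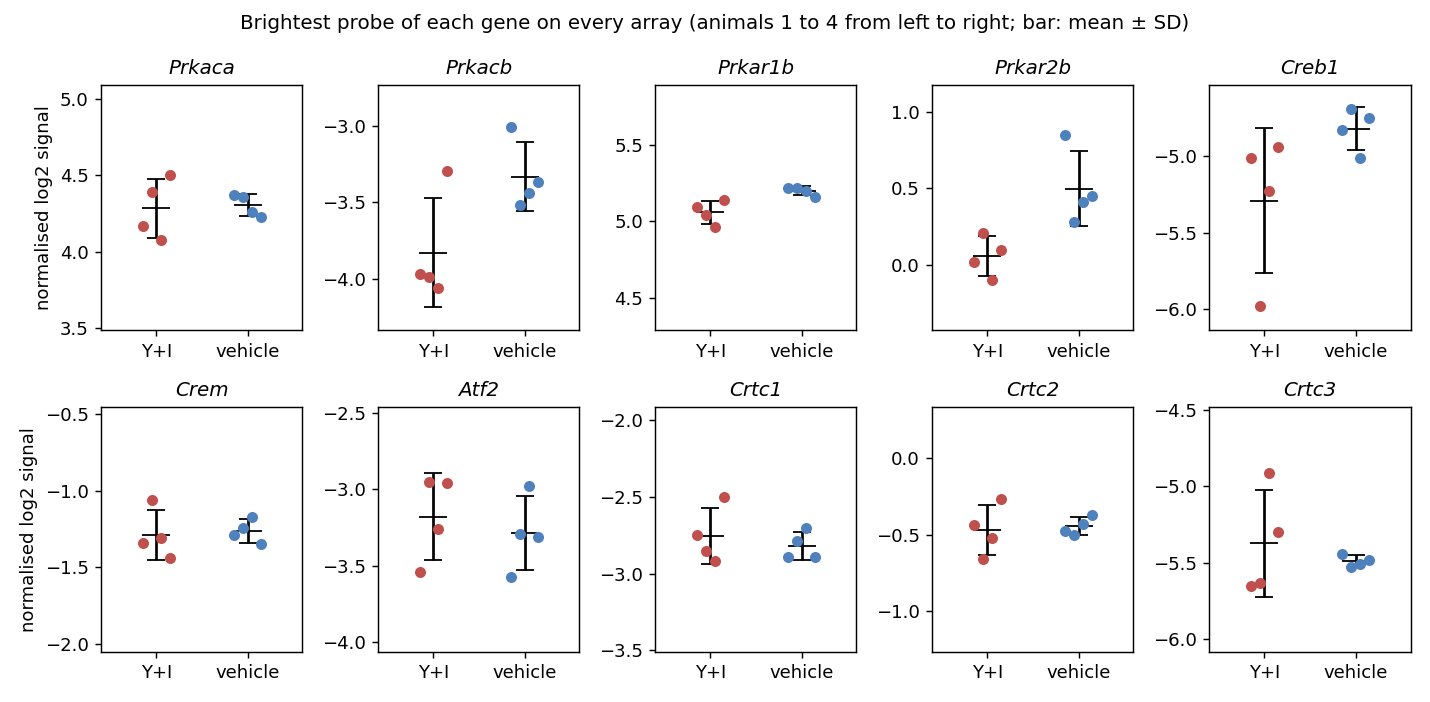
Normalised log2 signal of the brightest kept probe of each of the 10 genes on every array, with Y+I on the left and vehicle on the right; points are animals 1 to 4 and bars give the mean ± SD (n = 4). Each panel spans the same range of log2 units, and the Y+I points lie apart from the vehicle points for Prkar2b and Prkar1b alone.

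At the brightest probe of each gene, the regulatory subunits Prkar2b and Prkar1b were the members whose groups did not overlap. Prkar2b encodes RIIβ, the regulatory subunit that prevails in much of the forebrain and binds anchoring proteins. Its normalised log2 signal was 0.02, 0.21, -0.10 and 0.10 in Y+I animals 1 to 4, against 0.85, 0.28, 0.41 and 0.45 in vehicle animals 1 to 4. All 4 Y+I animals were below all 4 vehicle animals, by a narrow margin between Y+I animal 2 and vehicle animal 2, and vehicle animal 1 stood highest. The mean was 0.06 ± 0.13 in Y+I and 0.50 ± 0.24 in vehicle (SD, n = 4 each), a log2 fold change of -0.44 ± 0.14 (SE) with a 95% confidence interval of -0.75 to -0.13 (limma adjusted p = 0.153). On the linear scale the signal was 1.36-fold lower in Y+I.

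Prkar2b is also the member read from the most spots. Its probe was spotted 10 times per array, of which at least 8 spots were used. The SD between spots of 1 array had a median of 0.05 log2 units in Y+I and 0.02 in vehicle, and did not exceed 0.14 on any array.

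Prkar1b encodes RIβ, a regulatory subunit found mainly in neurons. Its signal was 5.09, 5.04, 4.96 and 5.14 in Y+I animals and 5.22, 5.22, 5.20 and 5.16 in vehicle animals. The groups did not overlap, but the gap between Y+I animal 4 and vehicle animal 4 was small, as was the whole difference. The log2 fold change was -0.14 ± 0.08 (SE, 95% interval -0.33 to 0.05, limma adjusted p = 0.478), and the SD between animals was 0.08 in Y+I and 0.03 in vehicle.

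Of the catalytic subunits, the one encoded by Prkacb (Cβ, abundant in brain) had the lowest fold change of the 10 genes. Prkacb stood at -3.97, -3.99, -4.06 and -3.30 in Y+I animals, against -3.01, -3.52, -3.44 and -3.37 in vehicle animals. Y+I animals 1, 2 and 3 were below every vehicle animal, and Y+I animal 4 lay within the vehicle range. The log2 fold change was -0.50 ± 0.19 (SE, 95% interval -0.93 to -0.07, limma adjusted p = 0.237), a signal 1.41-fold lower in Y+I. Without Y+I animal 4 it was -0.68 (adjusted p = 0.0602). With normexp background correction it was -0.27, and without Y+I animals 2 and 3 it was -0.31.

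Prkaca encodes Cα, the catalytic subunit present in nearly all cells, and its 2 probes gave different values. They are printed to show that they read separate stretches, with starts 1472 bases apart on chromosome 19.
Prkaca, brighter probe (chr19:25840817-25840876, minus strand): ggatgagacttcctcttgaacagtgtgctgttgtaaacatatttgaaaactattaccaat
Prkaca, dimmer probe (chr19:25842289-25842348, minus strand): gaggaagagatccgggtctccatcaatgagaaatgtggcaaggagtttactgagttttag
The brighter probe read 4.17, 4.39, 4.08 and 4.50 in Y+I animals and 4.37, 4.36, 4.26 and 4.23 in vehicle animals, so the groups overlapped (log2 fold change -0.02 ± 0.12, SE, adjusted p = 0.955). The dimmer probe, a single spot per array, read -2.82, -2.73, -2.38 and -2.28 in Y+I animals and -2.98, -2.92, -2.83 and -2.83 in vehicle animals. All 4 Y+I animals were above the vehicle animals at that probe, with a log2 fold change of 0.34 ± 0.14 (SE) that did not pass over the 21370 probes fitted one by one (limma adjusted p = 0.282). With the mean of both probes the gene stood at 0.16 (adjusted p = 0.541).

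**Figure D2:**
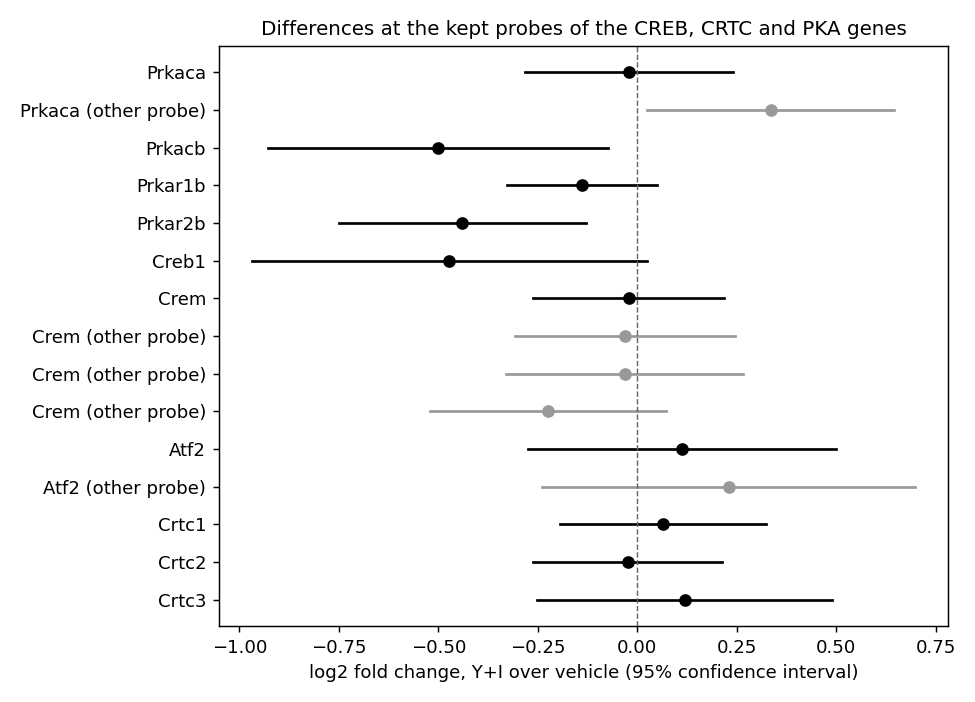
Log2 fold change of Y+I over vehicle with its 95% confidence interval at the 15 kept probes of the 10 genes; black marks the brightest probe of a gene and grey its other probes. Intervals that leave out 0 belong to Prkacb, Prkar2b and the dimmer Prkaca probe, and none of these passed after adjustment.

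Among the transcription factors, Creb1, which encodes CREB itself, was read from a dim probe. Its signal was -5.01, -5.98, -5.23 and -4.94 in Y+I animals and -4.83, -4.69, -5.01 and -4.75 in vehicle animals. Y+I animal 2 was far below the rest. Y+I animal 4 lay within the vehicle range, and Y+I animal 1 stood at its lower edge. The log2 fold change was -0.47 ± 0.22 (SE, 95% interval -0.97 to 0.02, limma adjusted p = 0.345). The probe was well above background on 2 of 4 Y+I arrays and on all 4 vehicle arrays, and the arrays where it was not were those of Y+I animals 2 and 3. It passed the filter through vehicle, which was the brighter group, so the size of the difference is uncertain. Without Y+I animals 2 and 3 the log2 fold change was -0.16 (adjusted p = 0.545), and with normexp background correction it was -0.17 (adjusted p = 0.381).

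Crem encodes activators and repressors of CRE-driven transcription, which are made by alternative splicing and from an internal promoter. That promoter gives the inducible repressor ICER, a known early product of cAMP signalling. Of the 5 Crem probes, 4 were well above background on all 8 arrays. The brightest read -1.34, -1.06, -1.31 and -1.44 in Y+I animals and -1.29, -1.24, -1.17 and -1.35 in vehicle animals. The groups overlapped, and the log2 fold change was -0.02 ± 0.11 (SE, 95% interval -0.26 to 0.22, adjusted p = 0.948). The interval corresponds to a signal between 0.834 and 1.16 times that of vehicle. The 3 other probes above background gave log2 fold changes of -0.03, -0.03 and -0.22, with adjusted p from 0.471 to 0.94 over the 21370 probes.

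The remaining Crem probe, made from transcript variant 2, starts 13323 bases upstream of the next one. Its opening 47 bases, in capitals, lie at the end of a 300-base window around an internal start site of Crem in the RefSeq annotation of rat build GRCr8.
Crem, internal-start probe (chr17:62822636-62822695 on rn4, plus strand): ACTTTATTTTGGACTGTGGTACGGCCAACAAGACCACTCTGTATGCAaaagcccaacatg
None of the 8 arrays had this probe well above background, so no fold change is given. Its readings, at or near the level of background, ran from -8.31 to -7.30 in Y+I and from -9.13 to -8.45 in vehicle. A change in the transcript that begins there was not measurable at this signal.

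The window holding that probe and the window of the next internal start are printed because both carry the palindromic CRE, TGACGTCA, in capitals. Windows run from 250 bases before to 50 after the start and are from RefSeq on GRCr8.
Crem internal window (chr17:58984547-58984846, plus strand): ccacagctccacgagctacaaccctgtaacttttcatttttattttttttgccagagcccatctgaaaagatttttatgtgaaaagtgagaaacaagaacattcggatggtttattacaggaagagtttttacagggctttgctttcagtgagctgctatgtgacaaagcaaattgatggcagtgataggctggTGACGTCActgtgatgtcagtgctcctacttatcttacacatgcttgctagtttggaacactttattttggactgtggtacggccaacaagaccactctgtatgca
Crem downstream internal window (chr17:58985240-58985539, plus strand): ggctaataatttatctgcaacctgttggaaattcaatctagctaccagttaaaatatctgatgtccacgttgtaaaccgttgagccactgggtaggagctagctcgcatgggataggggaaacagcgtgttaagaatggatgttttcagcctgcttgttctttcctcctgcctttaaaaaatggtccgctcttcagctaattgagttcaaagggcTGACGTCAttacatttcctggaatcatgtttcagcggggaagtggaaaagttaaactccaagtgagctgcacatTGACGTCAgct
Counted from the start site, the motif begins at -56 in the upper window and at -35 and 40 in the lower one. Over the 14 windows of the 10 genes, 2 held TGACGTCA, and both are these Crem windows. It was held by 1.83% of all 33469 promoter windows from RefSeq. The shorter TGACG, which lies within that palindrome, was searched on both strands and found in 7 of the 14 windows and in 21.2% of all windows. Those 7 include every Crem window, so they are not 7 separate genes. A match to either motif is a description of the letters and not a binding site.

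Atf2 encodes a factor that binds CRE-like sites and is activated mainly by stress-activated kinases. Its brighter probe read -3.54, -2.95, -3.26 and -2.96 in Y+I animals and -3.57, -3.29, -2.98 and -3.31 in vehicle animals. The groups overlapped, and the log2 fold change was 0.11 ± 0.17 (SE, adjusted p = 0.81). Its other probe gave 0.23 ± 0.21 (SE, adjusted p = 0.657 over the probes).

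The 3 coactivators showed no difference beyond the spread between animals. Crtc1, the family member prominent in neurons, read -2.75, -2.85, -2.92 and -2.50 in Y+I animals and -2.89, -2.79, -2.70 and -2.89 in vehicle animals. Its log2 fold change was 0.06 ± 0.11 (SE, 95% interval -0.20 to 0.32, adjusted p = 0.837). Crtc2, known from the liver's response to fasting, read -0.44, -0.66, -0.52 and -0.27 in Y+I animals and -0.48, -0.50, -0.43 and -0.37 in vehicle animals. Y+I animals lay on both sides of the vehicle range, and the log2 fold change was -0.02 ± 0.10 (SE, 95% interval -0.26 to 0.21, adjusted p = 0.942). The Crtc1 interval corresponds to 0.873 to 1.25 times the vehicle signal and the Crtc2 interval to 0.834 to 1.16 times.

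The brighter probe of Crtc3 read -5.65, -5.63, -4.91 and -5.30 in Y+I animals, against -5.44, -5.53, -5.51 and -5.48 in vehicle animals. That probe was well above background on 3 of 4 Y+I arrays and all 4 vehicle arrays. The vehicle animals lay close together and the Y+I animals on both sides of them, with a log2 fold change of 0.12 ± 0.16 (SE, adjusted p = 0.784). The other Crtc3 probe was well above background on 1 array of each group and did not pass the filter.

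The spread of Y+I animals was the larger one for 9 of the 10 members. The SD between animals at the main probe had a median of 0.19 over the 10 genes in Y+I and 0.08 in vehicle, with a range of 0.08 to 0.48 in Y+I and 0.03 to 0.24 in vehicle. Prkar2b was the exception in which the vehicle SD was the greater.

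To show which genes ran most like the members with the smallest p, the root mean square difference over the 8 arrays was taken after each gene's vehicle mean was subtracted. The named genes closest to Prkar2b were Tenm3 (0.08 log2 units), Hsf4 (0.08) and Gria4 (0.08), with log2 fold changes of -0.48, -0.45 and -0.36. Those closest to Prkacb were Slc35f4 (0.10), Tnfaip2 (0.11) and Lin7a (0.14), with log2 fold changes of -0.45, -0.43 and -0.44. The group difference is part of this measure, so genes with a fold change like the member's are picked by construction. None of these 6 passed after adjustment, and their adjusted p ran from 0.08 to 0.26.

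Beyond the 10 genes, 40 of 42 listed partners of the pathway could be tested: other CREB and ATF factors, CBP and p300, the other PKA subunits and PKA inhibitors, anchoring proteins, Epac genes, SIKs, calcineurin, DARPP-32 and CREB kinases. Of these 40, 1 rose, 0 fell and 39 did not pass, where 0.739% of all features rose and 1.6% fell. Their median log2 fold change was 0.00, against -0.02 over all features. The 4 with the smallest p were Creb3l1, Ppp3ca, Ppp3r1 and Akap12.

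Creb3l1, which encodes a CREB-like factor held in the endoplasmic reticulum membrane until cleaved, was the partner that rose. It read -1.05, -1.25, -0.98 and -1.03 in Y+I animals and -1.78, -1.40, -2.02 and -2.06 in vehicle animals. All Y+I animals were above all vehicle animals. The signal was 1.67-fold higher in Y+I, a log2 fold change of 0.74 ± 0.16 (SE, limma adjusted p = 0.0476). The call is close to the threshold: over its 20 alternatives the adjusted p ran from 0.0244 to 0.15, and among the 8 fits that left out an array it held only without vehicle animal 2.

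The calcineurin genes Ppp3ca, a catalytic subunit, and Ppp3r1, the regulatory B subunit, did not pass. Ppp3ca read 3.30, 3.00, 3.50 and 3.52 in Y+I animals and 2.52, 2.66, 2.88 and 3.02 in vehicle animals, with an overlap only between Y+I animal 2 and vehicle animal 4. Its log2 fold change was 0.56 ± 0.16 (SE, adjusted p = 0.116). Ppp3r1 read -2.96, -3.14, -2.81 and -2.50 in Y+I animals and -3.47, -3.35, -3.22 and -3.33 in vehicle animals, without overlap (0.49 ± 0.14, SE, adjusted p = 0.128). Calcineurin is the phosphatase that acts on CRTC proteins. Akap12, which encodes the PKA anchoring protein gravin, read -3.71, -4.71, -3.39 and -3.82 in Y+I animals and -3.05, -3.13, -3.34 and -2.73 in vehicle animals (-0.84 ± 0.27, SE, adjusted p = 0.159). A second kept probe of Akap12, not the brightest, had a log2 fold change of -1.13 ± 0.22 (SE) and passed over the 21370 probes fitted one by one (limma adjusted p = 0.0388). The count of 0 partners that fell takes each gene by its brightest probe.

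**Figure D3:**
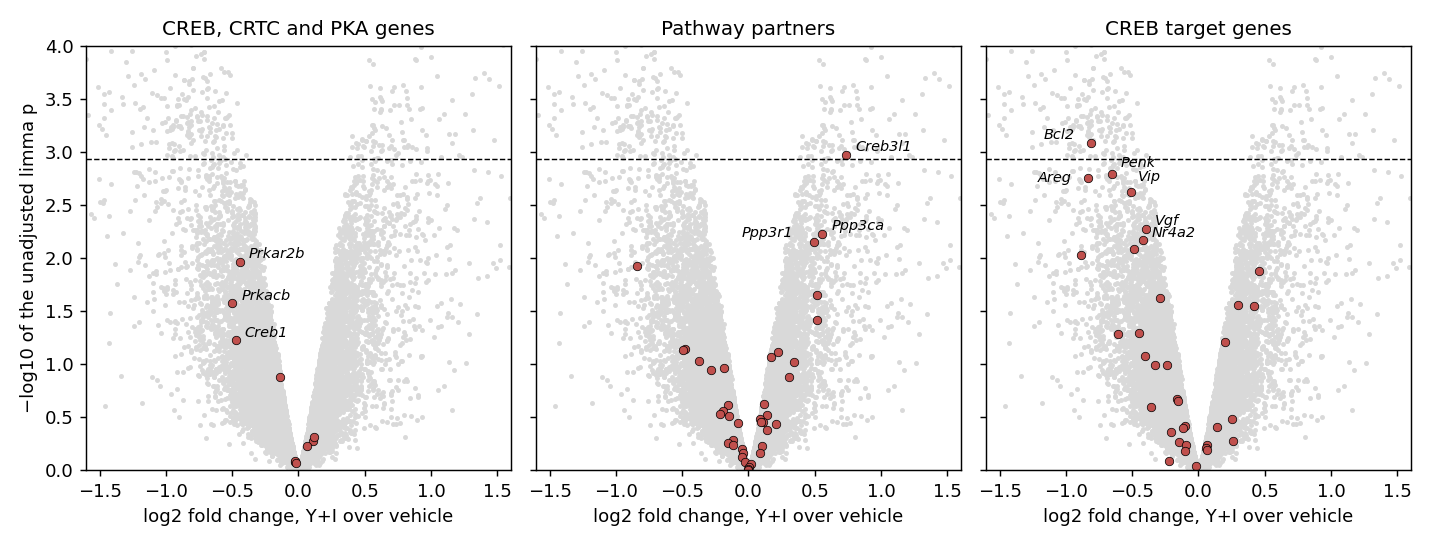
Log2 fold change of Y+I over vehicle against −log10 of the unadjusted limma p for the 10 genes, the 40 pathway partners and the 35 CREB target genes (red) over all features (grey, with those beyond the axes not shown); the dashed line is the level that an adjusted p under 0.05 requires. No red point in the left panel, Creb3l1 in the middle and Bcl2 on the right lie above the line.

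Of 36 genes known as CREB targets, 35 were tested, and 0 rose, 1 fell and 34 did not pass, where 0.739% of all features rose and 1.6% fell. Their median log2 fold change was -0.16, against -0.02 over all features, with 25 of 35 below 0, where 54.1% of all features were. The groups did not overlap for 8 with Y+I lower, where 6.65% of all features had that pattern, and for 2 with Y+I higher, where 5.04% did. Of the 35, 30 were well above background on all arrays, where 15179 of 18799 features were. Bcl2, Areg, Ppargc1a, Gem and Per1 were not, and passed the filter through vehicle alone, a route that favours values below 0. All of them are among the 25, and Bcl2 and Areg are among the 8. The filter's share in these counts was not tested. The 4 with the smallest p were Bcl2, Penk, Areg and Vip.

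Bcl2, which encodes a protein that blocks apoptosis, was the target that fell, on a dim probe. It read -5.78, -5.81, -5.97 and -5.30 in Y+I animals and -5.07, -5.02, -4.63 and -4.91 in vehicle animals, a log2 fold change of -0.81 ± 0.16 (SE, limma adjusted p = 0.0414). Its probe was well above background on 2 of 4 Y+I arrays and passed the filter through vehicle, where it was brighter, so the size of the difference is uncertain. With normexp the log2 fold change was -0.30 (adjusted p = 0.0621), and in the 8 fits that left out an array it passed only without Y+I animal 4. Over all 19 alternatives its adjusted p ran from 0.0181 to 0.177.

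The neuropeptide genes Penk and Vip had values that did not pass here, though over 20 alternatives Penk passed in 4 and Vip in 5. Penk, which encodes the precursor of the enkephalins, read -0.52, -0.76, -0.79 and -0.95 in Y+I animals and 0.11, 0.06, -0.13 and -0.43 in vehicle animals (-0.66 ± 0.15, SE, adjusted p = 0.0619). Vip, the gene of vasoactive intestinal peptide, read 0.68, 0.92, 0.39 and 0.63 in Y+I animals and 1.19, 1.12, 1.26 and 1.09 in vehicle animals (-0.51 ± 0.12, SE, adjusted p = 0.0742). Neither pair of groups overlapped. For Areg, the gene of the growth factor amphiregulin, 0 of 4 Y+I arrays were well above background. It read between -7.38 and -6.85 in Y+I and between -6.57 and -5.90 in vehicle, and no fold is given. The lowest signal of a probe with all its spots well above background averaged -5.83 over the Y+I arrays, above the vehicle mean of -6.27, although on the array of Y+I animal 4 it was -6.72. That rule was chosen after the values were seen. With probes that had at least 50% of their spots above background, the lowest signal did not exceed Areg's own reading on any Y+I array. It therefore set no bound on the difference.

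Markers of other cells and regions shifted beside these values. In such bulk tissue, fewer cells of a type and less RNA per cell cannot be told apart. Of 5 listed markers of striatum, a region rich in Prkar2b and Penk transcripts, 0 rose and 1 fell. All 5 had log2 fold changes below 0, but Adora2a was in effect unchanged (-0.005, adjusted p = 0.989). Their summed signal was 1.29 to 2.02 in Y+I and 1.98 to 2.63 in vehicle, in units of the 75th percentile. Most of it came from Ppp1r1b, the gene of DARPP-32, which did not pass (-0.49 ± 0.24, SE, adjusted p = 0.376). The marker that fell was the dopamine receptor gene Drd2 (-0.60 ± 0.11, SE, adjusted p = 0.0278), while 0 of 4 Y+I arrays read Drd1 well above background. Of 5 interneuron markers none passed, 4 of 5 were below 0, and the summed signal was 36.2 to 40.1 in Y+I and 44.6 to 47.6 in vehicle. Gad2 was the marker above 0 (0.38 ± 0.18, SE, adjusted p = 0.353), and Pvalb was in effect unchanged (-0.03, adjusted p = 0.947). Sst is on both this list and the target list, where it counts among the lower targets whose groups did not overlap. Of 9 hippocampal neuron markers 8 were above 0, 1 rose (Camk2a, 0.78 ± 0.15, SE, adjusted p = 0.0366), and the sum was 62.1 to 73.7 in Y+I and 45.8 to 60 in vehicle. Most of that sum came from Fibcd1, which did not pass (0.57 ± 0.22, SE, adjusted p = 0.26), and from Nrgn. Nrgn, counted above 0, was in effect unchanged (0.005, adjusted p = 0.991), and Prox1 was well above background on 2 of 4 Y+I arrays. Of 4 blood markers, the erythroid genes Hbb (-0.99) and Alas2 (-0.90) fell, while the neutrophil genes S100a9 (2.08 ± 0.60, SE, adjusted p = 0.129) and S100a8 (2.18 ± 0.69, SE, adjusted p = 0.158) did not pass. The median log2 fold change of the 4 was 0.59, and their summed signal, most of it from Hbb, was 6.75 to 10.6 in Y+I and 15.2 to 17.5 in vehicle. Of 5 meningeal markers 2 fell, Slc6a13 (-1.02) and Col1a1 (-1.03), with sums of 0.861 to 1.12 in Y+I and 1.34 to 1.73 in vehicle. Another kept Col1a1 probe gave -0.16, and of the 5 markers Dcn alone was above 0 (0.19). Of 4 markers of thalamus and habenula, Tac3 rose (0.81 ± 0.14, SE, adjusted p = 0.0255) and Slc17a6 fell (-1.17 ± 0.21, SE, adjusted p = 0.0291). Lef1 (-0.32) and Tcf7l2 (0.09) did not pass. The sums, most of them from Tac3, were 5.61 to 8.09 in Y+I and 4.41 to 5.84 in vehicle, so they do not describe the other markers. Markers of astrocytes, oligodendrocytes, microglia, endothelium and choroid plexus had 0 calls. For choroid plexus 3 of 5 listed markers were tested, and they varied widely between animals. Their summed signal was 0.312 to 1.45 in Y+I and 0.201 to 4.53 in vehicle, so the lack of calls there does not show an equal content. The part of these shifts in the values of Prkar2b, Penk and Vip was not tested.

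**Figure D4:**
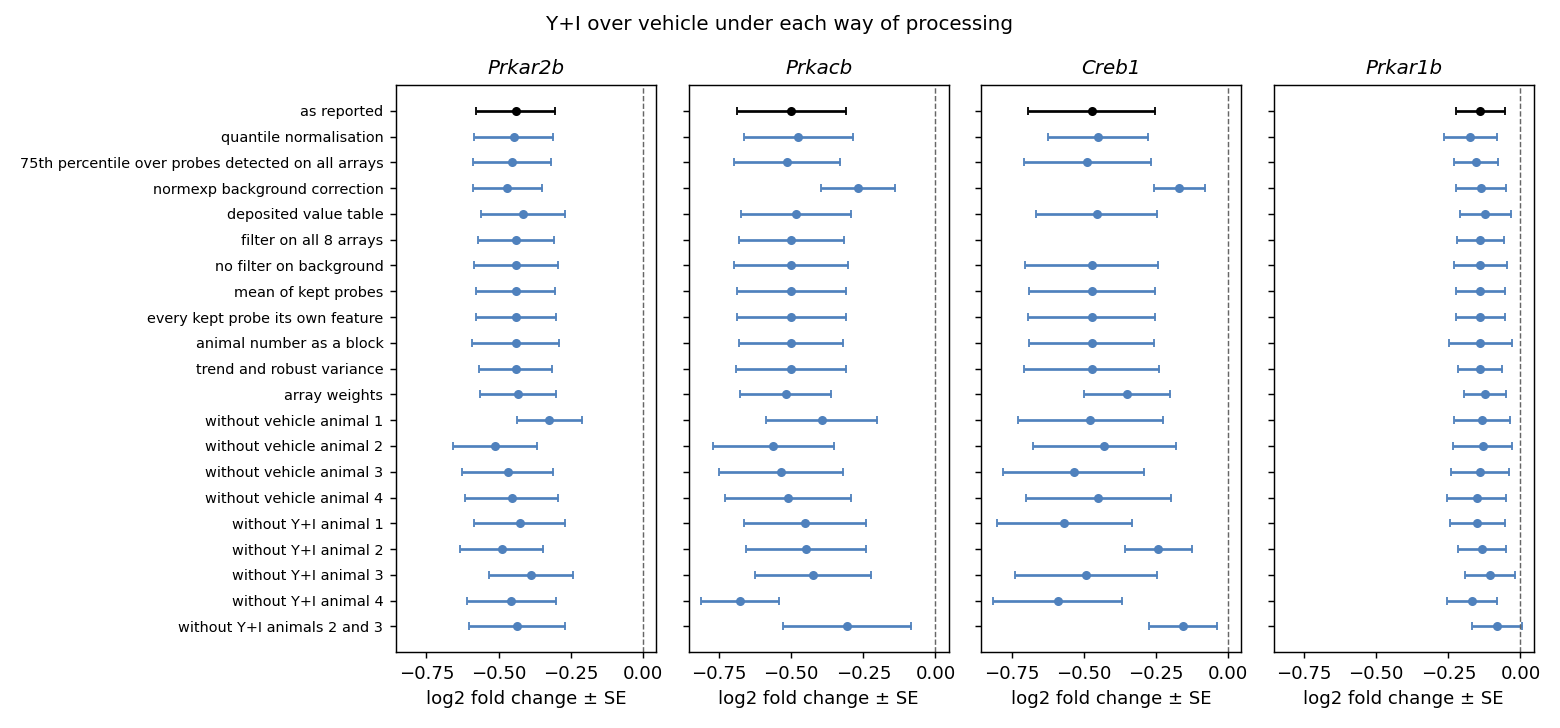
Log2 fold change of Y+I over vehicle with its SE for Prkar2b, Prkacb, Creb1 and Prkar1b, as reported (black, top) and under each other way of processing (blue). Every point lies below 0; those of Creb1 and Prkacb move toward 0 with normexp and without Y+I animals 2 and 3, and Creb1 has no point where the filter required all 8 arrays.

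Across other ways of processing, the direction of Prkar2b, Prkacb, Prkar1b and Creb1 did not change. Each was read from a single probe, so other filters, probe summaries, variance models and the animal-number block left its log2 fold change as it was by construction. Those settings could alter only its adjusted p or drop the gene. Over 20 alternatives the log2 fold change of Prkar2b lay between -0.51 and -0.32 and its adjusted p between 0.0734 and 0.3. That of Prkacb lay between -0.68 and -0.27 (adjusted p 0.0602 to 0.526), and that of Prkar1b between -0.17 and -0.08 (adjusted p 0.379 to 0.699). Creb1 ranged from -0.59 to -0.16 over 19 alternatives. Without Y+I animals 2 and 3, Prkar2b stood at -0.44 and Prkacb at -0.31. No member passed in any of the 198 fits of a member under an alternative.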

How the data were processed

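Groups and animal numbers came from the sample titles. The members and gene lists were chosen with earlier results of these data known. Per the file headers, the deposited intensity of each spot comes from Agilent Feature Extraction 10.5.1.1, after its background subtraction and detrending and without scaling across arrays. A deposited table of log2 values has no stated scale; its columns had medians between -3.51 and -3.35, lay 0.587 to 0.667 above the values used here, and correlated with them at 0.999 or more, so it served as an alternative.

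Values used here are log2 processed signal minus the array's 75th percentile over noncontrol spots, with outlier spots missing and spots of a probe averaged. No spot was saturated. To be kept, a probe needed at least 50% of its spots well above background on each of a group's 4 arrays and at least 3 values per group: 21370 of 30367 probes. The brightest kept probe stood for a gene, named through RefSeq GRCr8 (17996 probes by accession, 2328 by symbol, 626 by synonym, 2042 kept the file's name, 7375 unnamed).

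The test was limma's moderated one (version 3.58.1, functions lmFit and eBayes, under R 4.3.3). It was two-sided, and p was adjusted by Benjamini-Hochberg over all features at a threshold of 0.05. Intervals are per gene and not widened for the number of genes. In data simulated for this comparison over 18799 features, with 200 changed, the test recovered 40.3% of the 1.5-fold changes, 73.1% of the 2-fold ones and 95.5% of the 4-fold ones, and 12 of 151 calls were false. Named genes were the 10 members, the 4 partners and 4 targets with the smallest p (which include every one past the threshold), and the 3 genes nearest to each of the 2 members with the smallest p. Alternatives covered normalisation, background correction, the value table, filters, probe summaries, variance models, array weights, the threshold, an animal-number block and omitted arrays. Replicates are separate animals per the labels. Figures used matplotlib 3.10.9.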

Additional observations from a re-analysis of the deposited data

Results flagged for a closer look

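Prkacb in Y+I animal 4 read -3.30, apart from the other 3 Y+I animals, which read between -4.06 and -3.97. The gap was 0.884 of the range of the group. It was the only such gap among the 34 groups of 4 animals examined over the 17 probes, and chance marks about 1 group in 20.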

How the results depend on the processing

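No member passed under any alternative run (0 of 198 fits), so the count of 0 members did not move. The direction held in every alternative for Creb1, Prkacb, Prkar1b and Prkar2b. For these genes of a single probe, the filters, probe summaries, variance model and animal-number block could not change it. The other 6 members, all with values near 0, turned sign in 13 fits, and the cause was not tested: Atf2 with array weights (-0.0421), Crtc2 (0.0947) and Prkaca (0.0328) without Y+I animals 2 and 3, Prkaca with the mean of its probes (0.16), and the rest when 1 array was left out, where Crem ran from -0.0984 to 0.0286, Crtc1 from -0.0211 to 0.12, Crtc2 from -0.0916 to 0.0381, Crtc3 from -0.0366 to 0.212 and Prkaca from -0.0937 to 0.0489. The mean of the Prkaca probes differs by construction, since it includes the dimmer probe.

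Features called were 439 (139 higher in Y+I and 300 lower). The count was 3882 with no filter on background (3356 higher and 526 lower), 775 at an adjusted p under 0.1, 164 without Y+I animals 2 and 3, and 121 to 355 when 1 array was left out. The animal numbers did not pair the animals: correlations of same-numbered deviations were 0.05, -0.11, -0.04 and 0.04, and 2 of 8 arrays correlated best with their own number. With the number as a block 144 features passed, with 0 members, 0 partners and 0 targets.

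Partners called moved to 0 with the 75th percentile over probes detected on all arrays, with every kept probe as its own feature (a gene counted by its brightest probe, though the second Akap12 probe passed there), with array weights and without Y+I animals 2 and 3, and to 0 to 1 when 1 array was left out. Targets called were 2 with normexp, with trend and robust variance and with array weights, 5 with no filter, 4 at an adjusted p under 0.1, 0 without Y+I animals 2 and 3, and 0 to 1 when 1 array was left out. The genes behind these counts changed. With normexp and with trend and robust variance the 2 were Penk and Vip, and Bcl2 did not pass. With array weights they were Bcl2 and Vip. The filter on all 8 arrays, which dropped Bcl2, called Penk, and leaving out Y+I animal 2 called Vip. Creb1 and Crtc3 gave no value under the filter on all 8 arrays. Dim signal limits Creb1, Crtc3, Bcl2, Areg and the internal-start Crem probe.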
